A study of Mus musculus with 6 samples.

Results

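The SLC25 family of mitochondrial carriers was examined in a mouse lung tumour cell line lacking MAX, with and without MAX put back. The members were all genes whose symbol is Slc25a followed only by a number, which gave 47 of the 24391 genes in the annotation. Of these, 38 had enough counts to be tested and 9 did not. The cells were mRPMaxKO, a line from an RPMax-/- lung tumour with the strains given as 129/SvJ and C57BL/6, a mouse model of small cell lung cancer that also lacks Rb1 and p53. All cells were a polyclonal, puromycin-selected population with an inducible lentiviral vector, below passage 20, and the stated treatment was doxycycline for 4 days. The 2 groups of 3 libraries were MAX restored and control. The labels do not give the vector content of the control arm or say whether it received doxycycline. Nor do they say whether the 3 libraries of each arm are separate cultures, and where they are not, the p-values here reflect technical variation alone. Counts over whole genes do not check the Rb1 and p53 deletions.

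SLC25 carriers are small membrane proteins, nearly all of the mitochondrial inner membrane, that exchange nucleotides, phosphate, amino acids, carboxylates, cofactors and metals between the cytosol and the matrix. They link respiration, amino acid synthesis, haem production and redox control in the matrix to the rest of the cell. MAX is the partner with which MYC family and MXD family proteins bind DNA, typically at the E-box CACGTG, and many genes of growth and mitochondrial metabolism are known targets of these dimers.

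Each MAX restored library held between 10253303 and 11925909 counts and each control library between 10046899 and 10425210. Max, the restored gene, had 15979, 14933 and 13369 counts in MAX restored libraries 1, 2 and 3, against 639, 691 and 620 in controls 1, 2 and 3, which fits the labels. All 9 neuroendocrine markers were tested, of which 6 were higher with MAX restored and 1 was lower. Their summed level lay between 9344 and 9677 (CPM, the count scaled to a common library size) with MAX restored and between 8952 and 9182 CPM in the controls. The summed level of 4 fibroblast markers did not exceed 2.74 CPM, that of 3 immune markers 3.22 CPM and that of 3 endothelial markers 1.43 CPM in any library, and the endothelial marker Cdh5 had no count. The summed level of 4 alveolar and club markers lay between 24.5 and 28.7 CPM with MAX restored and between 32.3 and 33.8 CPM in the controls. The part of these cell types in the results was not tested. Control 1 stood apart from the other controls, with a chi-square per degree of freedom of 8.91 and 10.2 against them, where the other pairs of a group lay between 1.24 and 1.5. The ribosomal RNA precursor Rn45s took 0.996% of the counts of control 1, against 0.109% to 0.187% in every other library. Carriers that changed their call without control 1 are named with their values below, and so are the genes of the other lists that are named here.

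Among the 38 tested carriers 7 were higher and 16 lower with MAX restored, and 15 did not pass the threshold (edgeR quasi-likelihood test, adjusted p under 0.05 over all genes). Over all 12664 genes tested 31.2% were higher, 32.3% lower and 63.5% called in either direction, so the share of carriers called, 60.5%, lay near that of the transcriptome. The shares by direction were 18.4% of carriers higher and 42.1% lower. The median log2 fold change was -0.07 for the carriers and 0.00 for all genes. The groups' CPM ranges were separate in 25 of the 38, or 65.8%, against 67.1% of all genes. The median absolute log2 fold change was 0.28 for the carriers and 0.26 for all genes. Called changes of at least 0.5 on the log2 scale were found in 5 of the 38 carriers (13.2%), against 24.4% of all genes, and only Slc25a53 changed by at least 1. In bulk samples fewer cells of a type and less RNA per cell cannot be told apart. Without control 1 the carriers counted 9 higher and 18 lower, where 4033 and 4219 of all 12812 genes then tested were higher and lower. The carriers added were Slc25a3 and Slc25a5, lower, and Slc25a17 and Slc25a51, higher.

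The CPM sum over all 47 carriers overlapped between groups through control 1 alone, the library that stands apart. In CPM the other controls lay above every MAX restored library. Summed carrier CPM was 3578, 3570.3 and 3553 in MAX restored libraries 1, 2 and 3, against 3553, 3702 and 3629.9 in controls 1, 2 and 3. Per kilobase of exon (RPKM) the sum was 1988.3, 1960.8 and 1960.6 in MAX restored libraries 1, 2 and 3. In controls 1, 2 and 3 it was 1953.2, 2027.1 and 1986.5, so control 3 overlapped as well. Slc25a3, Slc25a4 and Slc25a5 together took between 50.9% and 52.3% of the RPKM total with MAX restored and between 46.2% and 47.1% in the controls. Of these genes only Slc25a4 had a higher mean with MAX restored, at 572 against 460 RPKM. The carriers of iron and glutathione took between 12.7% and 13.5% with MAX restored and between 18.5% and 19.5% in the controls. The ranges of both shares did not overlap, and no test was made of the sums. Within the iron and glutathione group the glutathione carrier gene Slc25a39 had a mean of 208 RPKM with MAX restored and 329 RPKM in the controls. The iron carriers Slc25a37 and Slc25a28 together had means of 43.9 and 43.7 RPKM.

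**Figure D1:**
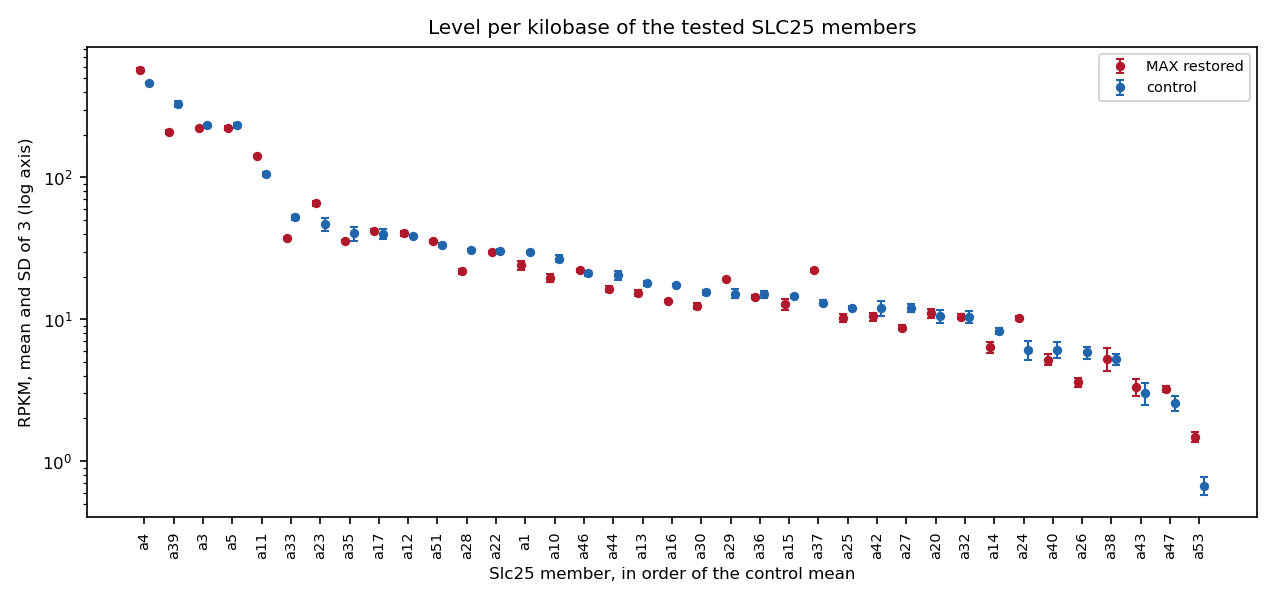
Level of 37 of the 38 tested SLC25 carriers in RPKM (CPM per kilobase of exon, log axis), ordered by the control mean, with the MAX restored mean left of the control mean for each gene and bars giving the SD of 3 libraries. Slc25a4 leads in both groups, Slc25a39 has rank 4 with MAX restored and rank 2 in the controls, and Slc25a53 is the lowest in both.

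Levels per kilobase spanned more than 2 orders of magnitude among the tested carriers, as the plot of levels shows. Slc25a4 stood first, with 572 ± 14.2 RPKM with MAX restored and 460 ± 6.58 RPKM in the controls (SD, n = 3 each). With MAX restored the order after Slc25a4 was Slc25a3 at 223 ± 0.701, Slc25a5 at 222 ± 6.93 and Slc25a39 at 208 ± 6.05 RPKM (SD, n = 3). Slc25a3 and Slc25a5 differed by less than their spread. In the controls Slc25a4 was followed by Slc25a39 at 329 ± 14.96 RPKM, then by Slc25a3 at 233 ± 5.57 and Slc25a5 at 233 ± 9.32 RPKM, the last pair again being separated by less than their spread. Slc25a11 had rank 5 in both groups, at 141 ± 2.06 RPKM with MAX restored and 106 ± 2.86 RPKM in the controls. The lowest tested member was Slc25a53, at 1.49 ± 0.118 RPKM with MAX restored and 0.671 ± 0.0973 RPKM in the controls.

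Because MAX dimers are known to bind CACGTG, this motif was sought in the RefSeq promoter windows of the carriers (GRCm38.p6, 250 bases before to 50 after a start). The motif reads the same on both strands. Windows existed for 36 of the 47 carriers, and those without included Slc25a2, Slc25a26, Slc25a27, Slc25a32, Slc25a35, Slc25a37, Slc25a41, Slc25a44, Slc25a46 and Slc25a51. CACGTG was found in 7 of the 36 (19.4%), against 8.09% of the 27025 genes with a window, tested or not. Among tested genes with a window, 6 carriers had the motif and 23 did not, against 1150 and 8521 of all genes. The broader CANNTG, which includes CACGTG and also reads alike on both strands, was found in 28 carriers (77.8%), against 75.0% of genes. Of the 7, Slc25a31 was not tested. The other 6 carry the letters at issue and are shown by 60 bases of the window that hold the motif, all upstream of the annotated start, 5′ to 3′ along the gene, with CACGTG in capitals.
Slc25a1: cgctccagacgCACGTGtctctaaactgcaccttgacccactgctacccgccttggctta
Slc25a13: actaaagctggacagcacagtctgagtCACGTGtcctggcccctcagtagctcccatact
Slc25a14: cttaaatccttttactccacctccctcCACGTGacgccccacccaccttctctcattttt
Slc25a15: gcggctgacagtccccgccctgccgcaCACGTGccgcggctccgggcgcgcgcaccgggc
Slc25a33: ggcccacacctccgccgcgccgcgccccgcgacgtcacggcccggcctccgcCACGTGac
Slc25a36: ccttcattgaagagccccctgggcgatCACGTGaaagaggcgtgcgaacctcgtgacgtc

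In GRCm38.p6 these stretches lie at chr16:17928410-17928469 (minus strand) for Slc25a1, chr6:6217266-6217325 (minus) for Slc25a13 and chrX:48623367-48623426 (plus) for Slc25a14. Those of Slc25a15, Slc25a33 and Slc25a36 lie at chr8:22398322-22398381, chr4:149774268-149774327 and chr9:97111196-97111255, all on the minus strand. The motif begins 8 bases before the start in Slc25a33 and 239 bases before it in Slc25a1, the nearest and the farthest of the 6. In Slc25a14 it lies before both of its annotated starts, 54 and 184 bases away at its far end. Of these 6 carriers 5 were lower with MAX restored, none was higher, and Slc25a36 did not pass. Among all 1150 tested genes with CACGTG in the window 41.3% were lower and 24.3% higher, against 31.5% lower and 31.5% higher among the 8521 tested genes with a window and no CACGTG. Of the 23 tested carriers with a window and no CACGTG, 7 were lower and 6 higher. The letters are a description and do not show binding.

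**Figure D2:**
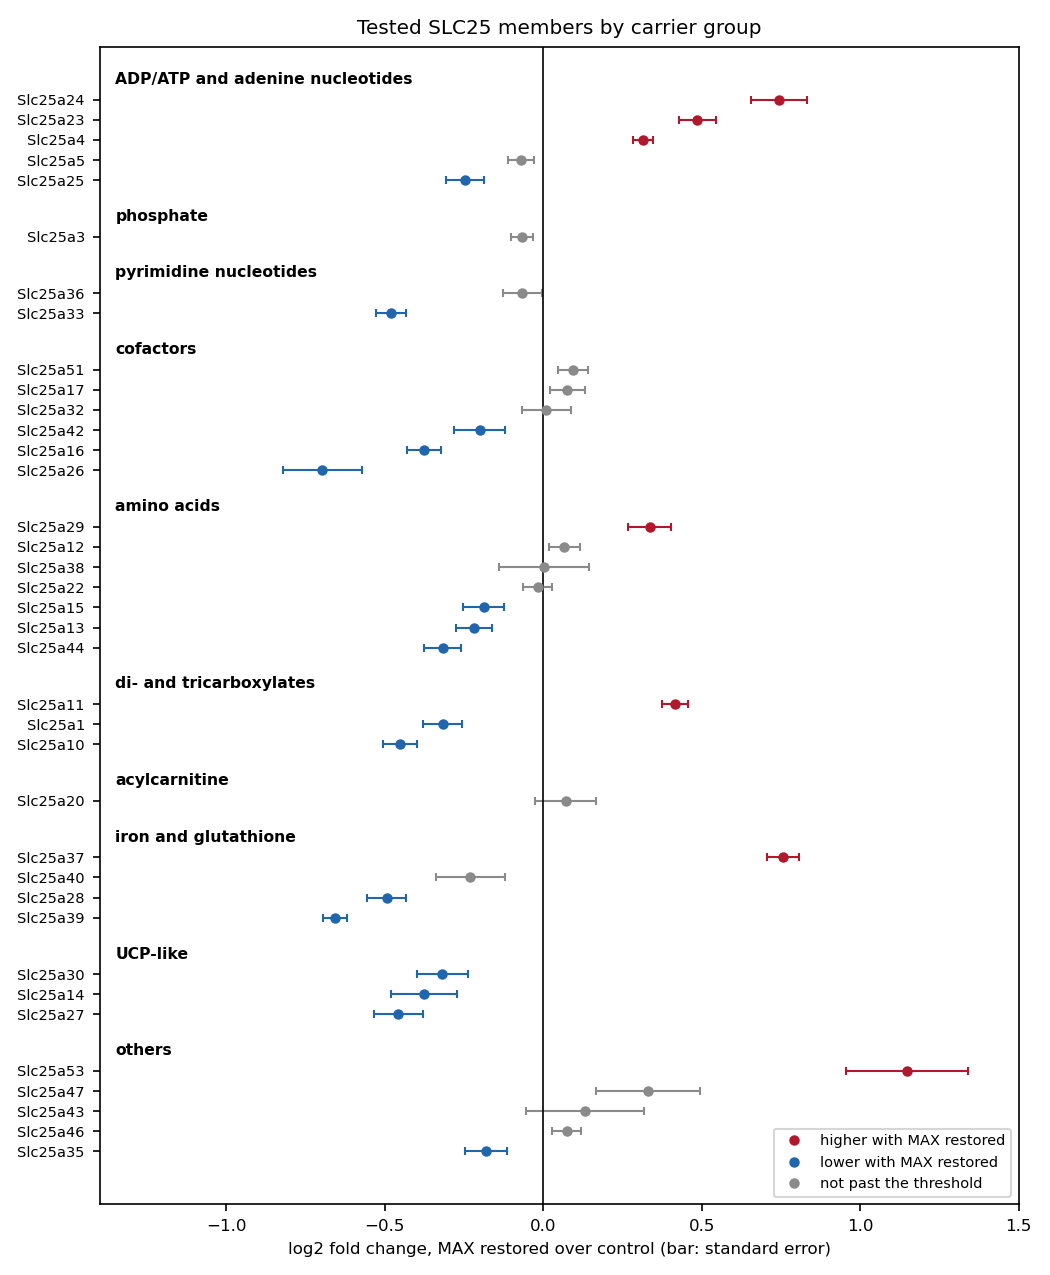
Log2 fold change (MAX restored over control, bars giving the standard error) of 37 of the 38 tested SLC25 carriers, grouped by transported substrate, with red for higher, blue for lower and grey for not past the threshold. Higher and lower carriers stand side by side in the groups of adenine nucleotides, amino acids, di- and tricarboxylates, and iron and glutathione. All 3 UCP-like carriers are lower, as are 32.3% of all genes.

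The iron carriers moved in opposite directions. Slc25a37 (mitoferrin 1), the iron importer best known from developing red blood cells, rose 1.69-fold, and Slc25a28 (mitoferrin 2), its widely expressed paralogue, fell 1.41-fold. Slc25a37 had 91.5, 94.5 and 90.4 CPM in MAX restored libraries 1, 2 and 3, against 52.3, 56.6 and 54.7 CPM in controls 1, 2 and 3. Slc25a28 had 33.4, 34.8 and 31.8 CPM in the MAX restored libraries, against 46.8, 46.5 and 47.7 CPM in the controls. In both genes the groups were well apart. The log2 fold change was 0.76 (SE 0.05, edgeR adjusted p = 8.52e-11) for Slc25a37, on chromosome 14 of mm9 from 69859908 to 69903160, and -0.49 (SE 0.06, edgeR adjusted p = 6.98e-07) for Slc25a28, on chromosome 19 from 43738292 to 43749371. Both genes lie on the minus strand with 4 exons each in the annotation used.

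Within each library the log2 ratio of Slc25a37 to Slc25a28 counts was 1.45, 1.44 and 1.51 with MAX restored, against 0.16, 0.28 and 0.20 in the controls. The difference was 1.25, the largest of the 12 paralogue pairs compared, and did not depend on scaling between libraries. The exact permutation test gave p = 0.1, the smallest that 3 against 3 libraries allow. The sum of both mitoferrins per kilobase was 43.9 ± 1.49 RPKM with MAX restored and 43.7 ± 0.615 RPKM in the controls (SD, n = 3 each), which overlapped. With MAX restored Slc25a37 at 22.1 ± 0.518 RPKM and Slc25a28 at 21.7 ± 0.990 RPKM differed by less than their spread. In the controls Slc25a37, at 13.1 ± 0.514 RPKM, lay below Slc25a28, at 30.6 ± 0.425 RPKM (SD, n = 3 each).

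Slc25a39, a carrier needed for glutathione import into mitochondria, fell 1.58-fold. It had 351, 354 and 335 CPM in MAX restored libraries 1, 2 and 3, against 517, 559 and 562 CPM in controls 1, 2 and 3. Control 1 was the lowest control and still lay far above every MAX restored library. The log2 fold change was -0.66 (SE 0.04, edgeR adjusted p = 1.03e-11), the smallest adjusted p among the carriers, for the gene on chromosome 11 of mm9 from 102264295 to 102268831. Its paralogue Slc25a40, which can stand in for it, had 14.2, 16.2 and 13.8 CPM with MAX restored, against 19.5, 17.4 and 14.96 CPM in the controls, where the groups overlapped. Its log2 fold change of -0.23 (SE 0.11) did not pass (edgeR adjusted p = 0.0709), and it was -0.14 without control 1. It passed without control 3 (log2 -0.33, edgeR adjusted p = 0.0142) or MAX restored 2 (edgeR adjusted p = 0.0466). The sum of both fell to 214 ± 6.40 RPKM with MAX restored, against 335 ± 14.3 RPKM in the controls (SD, n = 3 each), with no overlap.

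Genes of haem and iron-sulphur cluster synthesis, which use the iron brought in by the mitoferrins, were lower in 8 of 15 tested and higher in 1, where 32.3% of all genes were lower and 31.2% higher. Alad, an early haem synthesis enzyme, had a log2 fold change of -0.43, the glutaredoxin gene Glrx5 one of -0.37 and the cysteine desulphurase gene Nfs1 one of -0.40. Urod, of haem synthesis, was the only gene of this list that rose (0.27). The genes Alas1 (0.05), Fech (-0.01) and Ppox (-0.02) did not pass. Slc25a38, a glycine carrier needed for haem synthesis, had 8.32 ± 1.52 CPM with MAX restored and 8.24 ± 0.719 CPM in the controls (SD, n = 3 each) and did not pass. Among inner membrane transporters outside the family, Abcb10, needed for haem synthesis, was called higher (0.11). That call was lost in edgeR without control 2, control 3 or any MAX restored library (adjusted p between 0.0586 and 0.0862).

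**Figure D3:**
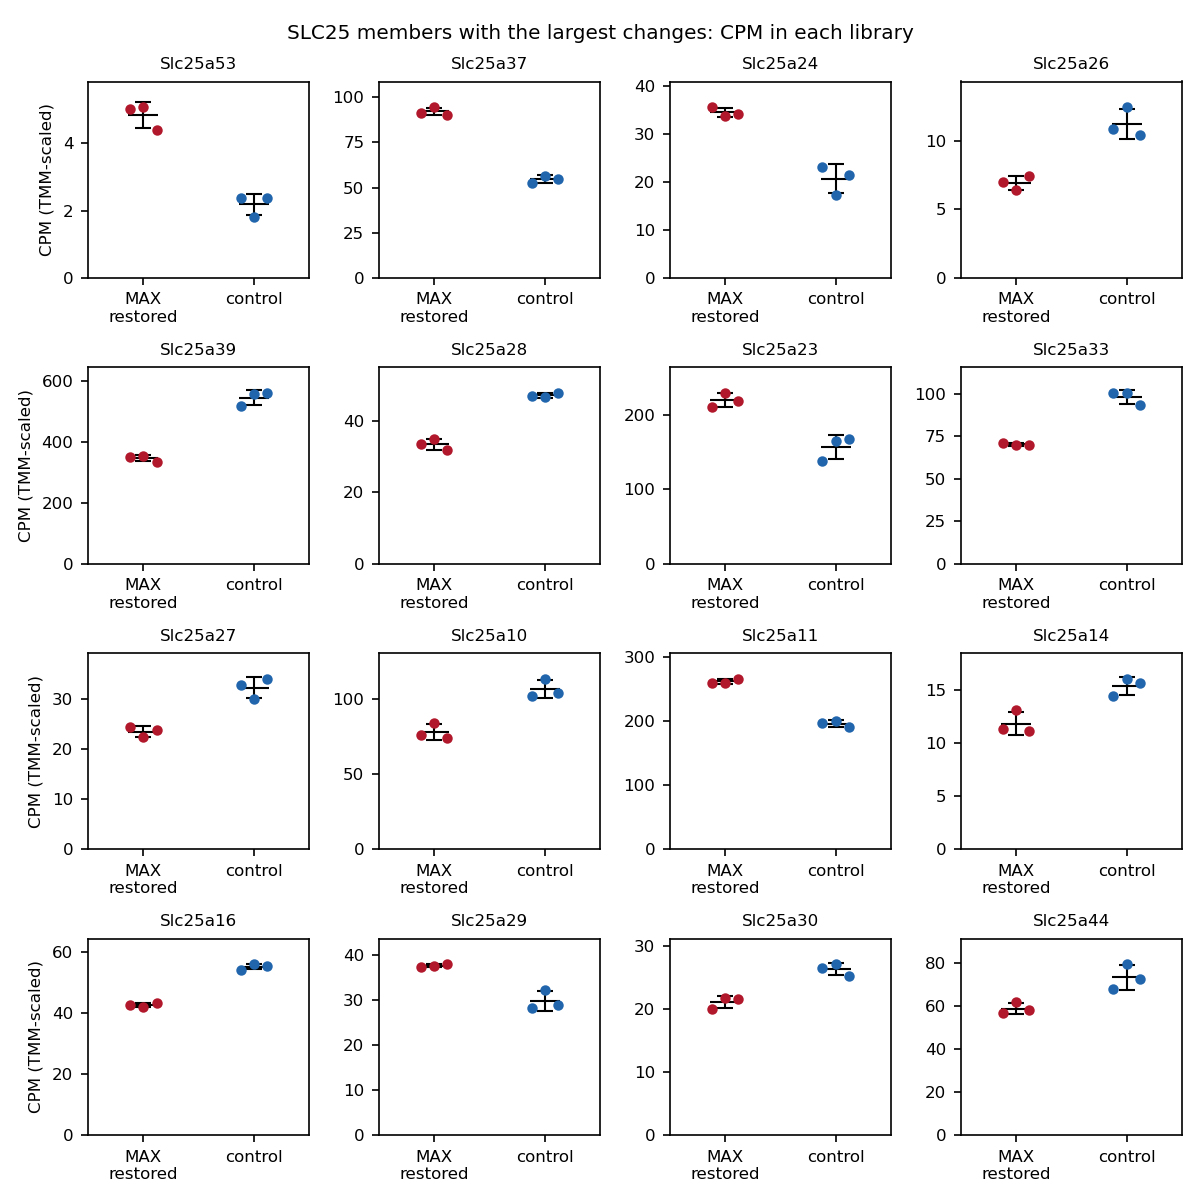
CPM in each library (points, left MAX restored and right control, axes from 0) with the mean and SD of 3, for the 16 SLC25 carriers with the largest changes among those past the threshold whose groups do not overlap. Slc25a53, Slc25a37, Slc25a24, Slc25a23, Slc25a11 and Slc25a29 are the 6 that stand higher with MAX restored, and the other 10 stand lower.

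Of the adenine nucleotide carriers 3 of 5 tested rose and 1 fell, where 31.2% of all genes were higher and 32.3% lower. Slc25a4 (ANT1), the ADP/ATP exchanger best known from heart and muscle, rose 1.24-fold. It had 647, 616 and 628 CPM in MAX restored libraries 1, 2 and 3, against 512, 510.5 and 499 CPM in controls 1, 2 and 3 (log2 0.31, SE 0.03, edgeR adjusted p = 7.14e-08). Slc25a5 (ANT2), the isoform of dividing cells, had 297, 280 and 284 CPM with MAX restored, against 287, 308 and 308 CPM in the controls, where the groups overlapped. Its log2 fold change of -0.07 (SE 0.04) did not pass with edgeR (adjusted p = 0.144). Without control 1 it was -0.10 and passed (edgeR adjusted p = 0.00258). The log2 ratio of Slc25a4 to Slc25a5 was 1.12, 1.14 and 1.15 with MAX restored, against 0.83, 0.73 and 0.70 in the controls, a difference of 0.38 (exact permutation p = 0.1, the smallest possible here). The sum of both was 793 ± 21.1 RPKM with MAX restored and 692 ± 7.93 RPKM in the controls (SD, n = 3 each), with no overlap. Slc25a5 has processed pseudogenes, and reads matching several places were not counted, so its level is uncertain. The testis isoform Slc25a31 (ANT4) had between 0 and 2 counts in any library.

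The ATP-Mg/phosphate carriers, which are calcium-dependent and set the matrix pool of adenine nucleotides, also split. Slc25a24 rose 1.68-fold, with 35.6, 33.7 and 34.2 CPM in MAX restored libraries 1, 2 and 3, against 23.1, 17.3 and 21.5 CPM in controls 1, 2 and 3 (log2 0.74, SE 0.09, edgeR adjusted p = 4.87e-07). Slc25a23 rose 1.40-fold, with 212, 231 and 219 CPM in the MAX restored libraries, against 139, 166 and 168 CPM in the controls (log2 0.49, SE 0.06, edgeR adjusted p = 6.57e-07). Control 1 was the highest control for the first gene and the lowest for the second, and without it the log2 fold changes were 0.83 and 0.40. The third paralogue, Slc25a25, fell 1.19-fold, with 40.8, 45.9 and 42.8 CPM in the MAX restored libraries, against 49.5, 52.3 and 51.7 CPM in the controls (log2 -0.25, SE 0.06, edgeR adjusted p = 0.00134). The groups overlapped in none of the 3 genes. Up to 9.53% of the exon length of Slc25a25 overlaps Naif1 on the other strand, and reads there cannot be assigned without strand. The log2 ratio of Slc25a24 to Slc25a25 differed by 0.998 and that of Slc25a25 to Slc25a23 by -0.74, with no overlap (exact permutation p = 0.1 each), whereas that of Slc25a24 to Slc25a23 overlapped between groups (0.26, exact permutation p = 0.3). Their relative Slc25a41, had 1 count in control 2 and none in the other libraries.

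**Figure D4:**
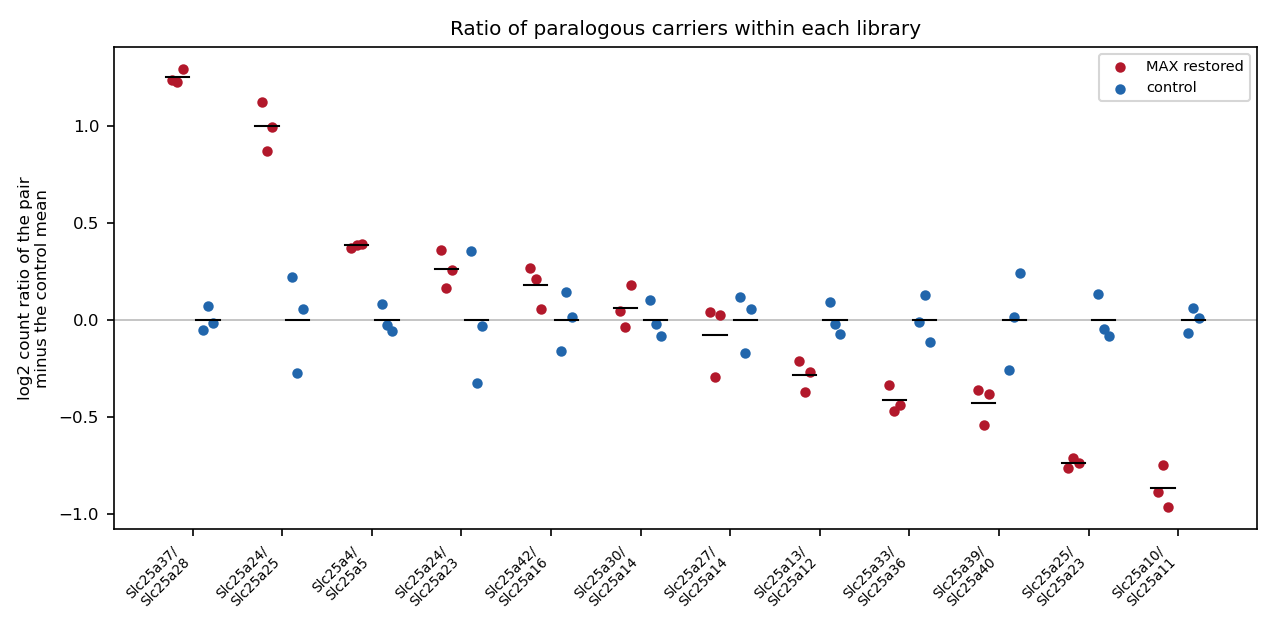
Log2 ratio of the counts of paralogous carriers in each library, shifted so that the control mean of each pair is 0 (points for libraries, bars for group means, MAX restored left of control). The mitoferrin pair Slc25a37/Slc25a28 lies highest and the pair Slc25a10/Slc25a11 lowest. In 8 of the 12 pairs, some of which share a gene, the groups do not overlap. Among all single genes tested the groups do not overlap in 67.1%.

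Carboxylate carriers showed a similar split. Slc25a11, the 2-oxoglutarate/malate carrier of the malate-aspartate shuttle, rose 1.33-fold, and Slc25a10, the dicarboxylate carrier that exchanges malate or succinate for phosphate, fell 1.37-fold. Slc25a11 had 260.1, 260.3 and 267 CPM in MAX restored libraries 1, 2 and 3, against 198, 201 and 191 CPM in controls 1, 2 and 3 (log2 0.42, SE 0.04, edgeR adjusted p = 2.95e-08). Slc25a10 had 76.2, 83.9 and 74.1 CPM in the MAX restored libraries, against 102, 114 and 104 CPM in the controls (log2 -0.45, SE 0.05, edgeR adjusted p = 4.86e-07). The groups were apart in both genes. The log2 ratio of Slc25a10 to Slc25a11 was -1.77, -1.63 and -1.85 with MAX restored, against -0.95, -0.82 and -0.87 in the controls (difference -0.87, exact permutation p = 0.1). Both genes lie on chromosome 11 of mm9, Slc25a11 from 70457529 to 70460541 and Slc25a10 from 120353151 to 120362475. The citrate carrier gene Slc25a1, one of those with CACGTG, fell 1.25-fold, to 40.4 ± 2.99 CPM with MAX restored, against 50.3 ± 0.664 CPM in the controls (SD, n = 3 each). Slc25a21, the oxodicarboxylate carrier, had no count in any library, which allows up to 0.252 to 0.293 CPM with MAX restored and 0.288 to 0.297 CPM in the controls (3 counts per library, counting error only).

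Among enzymes of the shuttle, citrate metabolism and related reactions, 6 of 16 tested were higher and 5 lower, or 7 lower without control 1. Of all genes 31.2% were higher and 32.3% lower. The aspartate aminotransferase of the cytosol, Got1, fell (log2 -0.70), as did Gpd1 (-0.63), Idh2 (-0.42), Me1 (-0.41) and the citrate synthase gene Cs (-0.20). Got2, the mitochondrial aminotransferase, did not pass, with 123 ± 3.57 CPM with MAX restored and 124 ± 0.730 CPM in the controls (SD, n = 3 each). Idh1 (0.99), Me3 (0.62), Gpd1l (0.25), Mdh1 (0.16) and Aco1 (0.16) rose. Gpd2 was called higher (0.15), and lost the call in edgeR without control 3 (0.10, adjusted p = 0.139) or MAX restored 1 (adjusted p = 0.0720) and with DESeq2 (adjusted p = 0.0575). The mitochondrial pyruvate carrier genes, of another family, were Mpc2, which fell (-0.64), and Mpc1, which was called lower (-0.30). The call of Mpc1 held in edgeR without control 1, and was lost without any other library (adjusted p between 0.0672 and 0.205) and with DESeq2 (adjusted p = 0.123).

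Among the amino acid carriers 1 of 7 tested rose and 3 fell, where 31.2% of all genes were higher and 32.3% lower. Slc25a29, a carrier of basic amino acids, rose 1.26-fold, with 37.3, 37.6 and 37.9 CPM in MAX restored libraries 1, 2 and 3, against 28.3, 32.2 and 28.8 CPM in controls 1, 2 and 3 (log2 0.34, SE 0.07, edgeR adjusted p = 0.000284). Slc25a44, the branched-chain amino acid carrier, fell 1.25-fold, with 56.5, 61.7 and 58.2 CPM in the MAX restored libraries, against 68.1, 79.4 and 72.4 CPM in the controls (log2 -0.32, SE 0.06, edgeR adjusted p = 9.84e-05). Neither gene overlapped between groups. Of the aspartate-glutamate carriers, Slc25a13 (citrin) fell 1.16-fold, to 48.0 ± 2.38 CPM with MAX restored, against 55.9 ± 2.18 CPM in the controls. Slc25a12 (aralar) had 118 ± 4.81 CPM with MAX restored and 112 ± 2.08 CPM in the controls (SD, n = 3 each), and did not pass. The log2 ratio of Slc25a13 to Slc25a12 differed by -0.29, with no overlap (exact permutation p = 0.1). The ornithine carrier gene Slc25a15 fell 1.14-fold (edgeR adjusted p = 0.0151). That call was lost in edgeR without control 2 (adjusted p = 0.0509) and without MAX restored 2 (adjusted p = 0.136, log2 -0.12 in place of -0.19), and DESeq2 gave adjusted p = 0.0532. The glutamate carrier gene Slc25a22 had 85.5 ± 0.988 CPM with MAX restored and 86.6 ± 2.48 CPM in the controls (SD, n = 3 each) and did not pass. Its paralogue Slc25a18 and the second ornithine carrier gene Slc25a2 had at most 10 counts in a library and were not tested.

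Enzymes of glutamate, proline and ornithine metabolism were lower in 7 of 12 tested and higher in 2. Of all genes 32.3% were lower and 31.2% higher. Pycr1, which makes proline in mitochondria, fell to 34.2 ± 3.49 CPM with MAX restored, against 95.8 ± 9.97 CPM in the controls (SD, n = 3 each; log2 -1.48, SE 0.08). Aldh18a1, the preceding enzyme, had a log2 fold change of -0.66 and the glutaminase gene Gls2 one of -0.75. Aldh4a1, of proline breakdown, rose (0.47). The arginase gene Arg2 was called higher (0.19), and lost the call in edgeR without control 1 (0.10, adjusted p = 0.155), MAX restored 1 (adjusted p = 0.0674) or MAX restored 3 (adjusted p = 0.0887) and with DESeq2 (adjusted p = 0.0544).

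The pyrimidine nucleotide carriers differed from each other. Slc25a33, which brings pyrimidine nucleotides to the matrix, fell 1.40-fold, with 71.3, 69.6 and 70.1 CPM in MAX restored libraries 1, 2 and 3, against 100.6, 100.4 and 93.5 CPM in controls 1, 2 and 3 (log2 -0.48, SE 0.05, edgeR adjusted p = 3.13e-08). Slc25a36, its paralogue, had 42.3, 45.2 and 44.6 CPM in the MAX restored libraries, against 47.5, 43.1 and 47.5 CPM in the controls, where the groups overlapped (log2 -0.07, SE 0.06, edgeR adjusted p = 0.356). Both hold CACGTG in the windows printed above. The log2 ratio of Slc25a33 to Slc25a36 differed by -0.42, with no overlap (exact permutation p = 0.1). Genes of mitochondrial DNA upkeep, transcription and nucleotide supply were lower in 7 of 12 tested and higher in none, where 32.3% of all genes were lower and 31.2% higher. Rrm2b, a ribonucleotide reductase subunit, had a log2 fold change of -0.60, the helicase gene Peo1 one of -0.61 and the exonuclease gene Mgme1 one of -0.63.

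Of the 7 cofactor carriers 3 fell and none rose, where 32.3% of all genes were lower and 31.2% higher. Slc25a26, which brings S-adenosylmethionine into the matrix, fell 1.62-fold, the largest fall among the carriers. It had 6.97, 6.42 and 7.43 CPM in MAX restored libraries 1, 2 and 3, against 10.8, 12.5 and 10.4 CPM in controls 1, 2 and 3 (log2 -0.70, SE 0.13, edgeR adjusted p = 7.08e-05). These rest on between 72 and 83 counts with MAX restored and between 105 and 130 in the controls, and the groups were apart. Up to 6.46% of its exon length overlaps Lrig1 on the other strand. Slc25a16, linked to coenzyme A in the matrix, fell 1.30-fold, with 42.4, 41.8 and 43.1 CPM in the MAX restored libraries, against 54.1, 55.8 and 55.4 CPM in the controls (log2 -0.38, SE 0.05, edgeR adjusted p = 5.31e-06). Slc25a42, a coenzyme A carrier, had 35.2, 33.4 and 30.9 CPM in the MAX restored libraries, against 33.4, 42.6 and 38.6 CPM in the controls. The groups overlapped through control 1, and the call (log2 -0.20, SE 0.08, edgeR adjusted p = 0.0362) depended on single libraries. In edgeR it was lost without control 2 (log2 -0.12, adjusted p = 0.242), control 3 (adjusted p = 0.0714), MAX restored 2 (adjusted p = 0.0862) or MAX restored 3 (adjusted p = 0.179). Under upper-quartile scaling edgeR gave adjusted p = 0.0667, and DESeq2 gave adjusted p = 0.0825.

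The other 4 cofactor carriers did not pass. Slc25a32, for folate and flavin, had 30.7 ± 1.17 CPM with MAX restored and 30.5 ± 2.94 CPM in the controls (SD, n = 3 each; log2 0.01, SE 0.08). Slc25a51, for NAD, stood at 0.09 (SE 0.05, edgeR adjusted p = 0.0857), and passed without control 1 (edgeR adjusted p = 0.0432) and under upper-quartile scaling (edgeR adjusted p = 0.0315). Slc25a17, a peroxisomal member, stood at 0.08 (SE 0.06, edgeR adjusted p = 0.245), and at 0.13 without control 1 (edgeR adjusted p = 0.0343). Cofactor enzyme and uptake genes were lower in 8 of 14 tested, where 32.3% of all genes were lower and 31.2% higher. Of this list 2 genes were higher, Pank4 (log2 0.38) and Nmnat1 (0.46). The call of Nmnat1 was lost in edgeR without MAX restored 1 (0.27, adjusted p = 0.286), MAX restored 2 (adjusted p = 0.0913) or control 3 (adjusted p = 0.166) and with DESeq2 (adjusted p = 0.105). The pantothenate kinase genes of coenzyme A synthesis, Pank2 (-0.28), Pank1 (-0.31) and Pank3 (-0.19), were lower, as was Coasy (-0.19), the last step.

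All 3 carriers that resemble uncoupling proteins were lower, as were 32.3% of all genes. Slc25a27 (UCP4) fell 1.37-fold, with 24.4, 22.3 and 23.6 CPM in MAX restored libraries 1, 2 and 3, against 32.8, 29.8 and 34.0 CPM in controls 1, 2 and 3 (log2 -0.46, SE 0.08, edgeR adjusted p = 3.57e-05). Slc25a14 (UCP5) fell 1.30-fold, with 11.3, 13.1 and 11.1 CPM in the MAX restored libraries, against 14.5, 16.1 and 15.7 CPM in the controls (log2 -0.38, SE 0.10, edgeR adjusted p = 0.00391). Slc25a30 fell 1.25-fold, with 20.0, 21.9 and 21.6 CPM in the MAX restored libraries, against 26.6, 27.1 and 25.3 CPM in the controls (log2 -0.32, SE 0.08, edgeR adjusted p = 0.00183). None of the 3 overlapped between groups, and the first and second are known mainly from brain. The ratios of Slc25a27 and of Slc25a30 to Slc25a14 overlapped between groups (exact permutation p = 0.5 and 0.6). Of the family's members under other symbols, Ucp2, an uncoupling protein, was abundant and did not pass, with 1856 ± 29.4 CPM with MAX restored and 1943 ± 132 CPM in the controls (SD, n = 3 each). Its log2 fold change was -0.07, and it was -0.12 and passed without control 1 (edgeR adjusted p = 0.000111). Mtch2 (log2 -0.40) and Mtch1 (-0.09), outer membrane relatives, were called lower, and Ucp1 and Ucp3 were not tested. The call of Mtch1 was lost in edgeR without control 2, MAX restored 1 or MAX restored 3 (adjusted p between 0.0571 and 0.106).

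Carriers of phosphate and acylcarnitine did not pass. Slc25a3, which supplies the ATP synthase with phosphate and also carries copper, had 338, 336 and 337 CPM in MAX restored libraries 1, 2 and 3, against 353, 361 and 345 CPM in controls 1, 2 and 3. The groups did not overlap, but the log2 fold change was -0.07 (SE 0.04, edgeR adjusted p = 0.108), and it passed without control 1 (edgeR adjusted p = 0.0419). Slc25a20, the acylcarnitine carrier of fatty acid oxidation, had 19.6 ± 1.45 CPM with MAX restored and 18.7 ± 1.94 CPM in the controls (SD, n = 3 each). Of all genes 31.2% were higher and 32.3% lower. Genes of carnitine use and fatty acid oxidation were higher in 5 of 10 tested and lower in 2. Those called higher were Cpt1a (log2 0.63), the enzyme that starts fatty acid entry, Acadm (0.39), Cpt1c (0.29), Cpt2 (0.17) and Hadha (0.13), and those that fell were Acadl (-0.37) and the carnitine importer gene Slc22a5 (-0.44). The call of Cpt2 was lost in edgeR without control 1, control 3, MAX restored 1 or MAX restored 2 (adjusted p between 0.0545 and 0.0919), and that of Hadha without MAX restored 1 or MAX restored 2 (adjusted p = 0.0970 and 0.0594).

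Among the remaining members, Slc25a53, an X-linked carrier of unknown substrate, had the largest rise of all carriers. It held 60, 57 and 45 counts in MAX restored libraries 1, 2 and 3, against 24, 19 and 24 in controls 1, 2 and 3, or 5.04, 5.08 and 4.40 CPM against 2.36, 1.82 and 2.38 CPM. The groups were apart at low levels, and the fold change was 2.22 (log2 1.15, SE 0.19, edgeR adjusted p = 3.38e-05). Changes of at least 1 on the log2 scale were called in 8.53% of all genes. Slc25a35, whose substrate is uncertain, had 66.0, 64.4 and 64.1 CPM with MAX restored, against 63.6, 77.8 and 79.1 CPM in the controls, where control 1 lay below the MAX restored range. It was called lower (log2 -0.18, SE 0.07, edgeR adjusted p = 0.0214), and the value was -0.28 without control 1. In edgeR the call was lost without control 2 (adjusted p = 0.0965), control 3 (adjusted p = 0.123), MAX restored 2 (adjusted p = 0.0740) or MAX restored 3 (adjusted p = 0.0814). Slc25a46, an outer membrane member involved in mitochondrial shape, had 96.7 ± 1.94 CPM with MAX restored and 91.9 ± 3.39 CPM in the controls (SD, n = 3 each) and did not pass. Slc25a47 (log2 0.33, SE 0.16) and Slc25a43 (0.13, SE 0.19) did not pass either. The other members not tested, Slc25a34, Slc25a45, Slc25a48 and Slc25a54, had between 0 and 8 counts in a library.

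Carriers reach the inner membrane through the outer membrane pore, small chaperones and the TIM22 complex. Of these import genes 8 of 15 tested were lower and 1 was higher, where 32.3% of all genes were lower and 31.2% higher. The chaperone gene Timm10 fell to 9.88 ± 0.320 CPM with MAX restored, against 22.1 ± 0.492 CPM in the controls (SD, n = 3 each; log2 -1.16, SE 0.09, edgeR adjusted p = 2.15e-09). Its partner Timm9 (log2 -0.65), the pore gene Tomm40 (-0.50), Timm13 (-0.37) and the insertase gene Timm22 (-0.25) were also lower, and the receptor gene Tomm20 rose (0.21). The outer membrane channel genes Vdac1 (-0.17), Vdac2 (-0.17) and Vdac3 (-0.25) were all lower, the last at -0.14 without control 1 (edgeR adjusted p = 0.0308). Over all lists of neighbouring mitochondrial functions 20 of 113 tested genes (17.7%) were higher and 55 (48.7%) lower, against 31.2% and 32.3% of all genes. Among inner membrane transporters of other families 3 of 14 were higher, among them Abcb10 and Sfxn5 (0.86, or 0.58 without control 2), and 5 were lower, among them Mpc2, Mpc1, Sfxn1 (-0.16) and Letm1 (-0.13). In edgeR the call of Sfxn1 was lost without MAX restored 1 (adjusted p = 0.0715), and that of Letm1 without control 2 or any MAX restored library (adjusted p between 0.0595 and 0.0937).

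**Figure D5:**
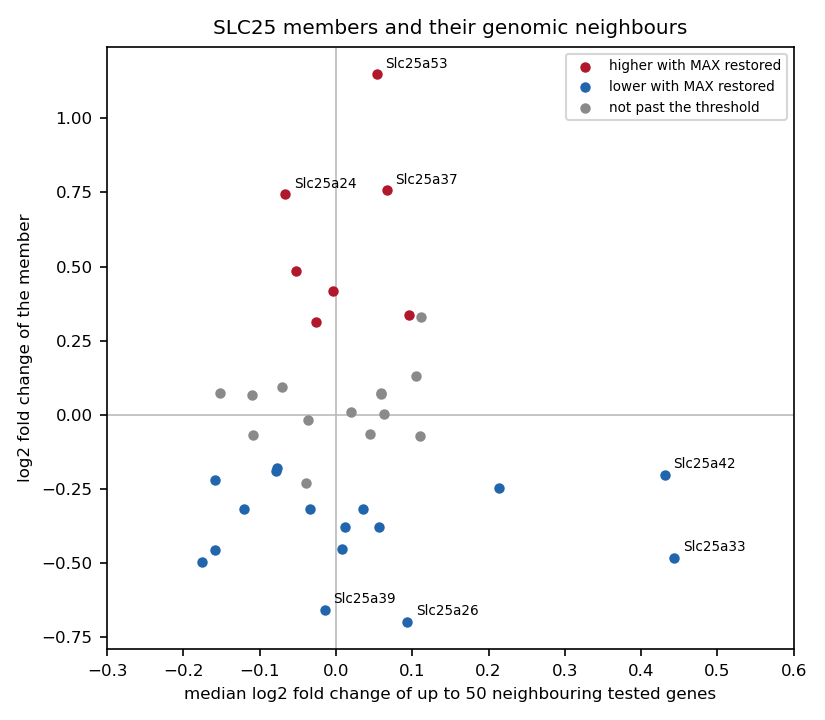
Log2 fold change of 37 of the 38 tested SLC25 carriers against the median log2 fold change of up to 50 neighbouring tested genes, coloured by call (red higher, blue lower, grey not past the threshold). Slc25a33 and Slc25a42 lie at the right, among neighbours that are mostly higher, and are themselves lower.

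To show each carrier against its place in the genome, it was set beside the 25 tested genes on either side of it in mm9 order. Slc25a33, on chromosome 4 from 149118145 to 149148376, stood at -0.48 while its 50 neighbours had a median of 0.44, with 42 higher and 3 lower. Slc25a42, on chromosome 8 from 72708239 to 72736180, stood at -0.20 with neighbours at 0.43, of which 36 were higher and 7 lower. In these 2 carriers, the only ones whose neighbours had a median above 0.3, the gene and its surroundings lay on opposite sides of 0. Slc25a28 lay among neighbours with a median of -0.18, of which 24 were lower and 8 higher, and its own value of -0.49 was lower still. For Slc25a37, Slc25a39 and Slc25a53 the neighbours had medians of 0.07, -0.01 and 0.05. The part of the neighbourhood in these values was not tested.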

How the data were processed

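RNA of 6 libraries was sequenced, 3 per group, from 500 ng of total RNA each, per the labels' protocols. Tools listed in the submitters' processing notes are STAR 2.5.2a and bcl2fastq 1.8.4, and reads were assigned to mm9 gene exons with featureCounts 1.6.0. Deposited files hold raw counts per gene symbol, made by the authors without strand, with no option set for reads that map to several places, per the file headers. Antisense partners cannot be separated, and genes with near-identical copies lose reads.

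Genes were kept by filterByExpr (minimum count 10) and tested with edgeR 4.0.16 in R 4.3.3: TMM scaling, quasi-likelihood test by group, two-sided, Benjamini-Hochberg adjustment over all 12664 genes, threshold 0.05. Standard errors are the coefficient over the square root of F. CPM are scaled by TMM, and RPKM divide them by exon length. All changes are relative to the transcriptome. Paralogue ratios add 0.5 to each count and were compared by exact two-sided permutation over 20 splits, with p unadjusted, since 12 pairs were compared and none can fall below 0.1. Protein sequences were not used here. Results of a few genes, 1 carrier among them, are not reported here. The script was tested on simulated data. Members, lists and naming rules (members; up to 16 called carriers in full; of each list the 3 smallest p, and all where a direction holds 5 or fewer; further list genes were chosen after their values were seen) were set with earlier results of these data known. Alternatives covered scaling, filters, thresholds, DESeq2 1.42.0, limma 3.58.1 voom, a replicate block and leaving out each library. Promoter sequences are from RefSeq (GRCm38.p6), whose coordinates were not combined with mm9.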

Additional observations from a re-analysis of the deposited data

How the results depend on the processing

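RLE and library-total scaling, both other filters and limma voom kept all 23 carrier calls. Upper-quartile scaling lost Slc25a42 and gained Slc25a51 (8 higher and 15 lower, against 4244 and 3799 of all genes). DESeq2 lost Slc25a15 and Slc25a42 (7 higher and 14 lower, against 3444 and 3576 of all genes). Leaving out 1 library gave 7 to 9 higher and 13 to 18 lower, and the calls lost were those of Slc25a15, Slc25a35 and Slc25a42. Over all genes it gave 3618 to 4033 higher and 3640 to 4219 lower, and over the list genes 14 to 19 higher and 47 to 60 lower. At adjusted p under 0.01, 7 carriers were higher and 13 lower, against 3243 and 3418 of all genes. Requiring a change beyond 1.2-fold (edgeR glmTreat) left 5 carriers higher and 7 lower, 5 and 23 of the list genes, and 2111 and 1896 of all genes, by the construction of that test. The summed carrier level differed by -0.02 on the log2 scale, and by between -0.04 and 0.00 under other scalings and without single libraries. The difference for Slc25a27/Slc25a14 lay between -0.16 and 0.03 without single libraries, changing sign (0.032) without MAX restored 2. No other paralogue difference and no called carrier changed sign. Of the counts for single lists 40 of 320 moved by more than 1.5 times. The replicate number as a block gave 7 carriers higher and 17 lower (3941 and 4093 of all genes), adding Slc25a40. Deviations of same-numbered libraries correlated at 0.010, 0.047 and -0.023, and those of differently numbered libraries between -0.081 and 0.069. With 3 libraries per group these values cannot tell whether the numbers pair the samples. Carriers with fewer than about 10 counts per library could not be tested at this depth.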
